A study of Mus musculus with 26 samples.

Results

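The Podxl pA line was followed from mouse embryonic stem cells (ESCs) to day 2 of neural differentiation (NPCs), and its change was described across all genes. It consists of 6 of the 26 RNA-seq samples of the series, the 3 libraries labelled ESC Podxl pA and the 3 labelled NPC Podxl pA, chosen by these labels alone. The parental line is E14Tg2a, a mouse ESC line. In Podxl pA, both alleles of Podxl carry an inserted cassette of a self-cleaving peptide, eGFP and an SV40 polyadenylation signal downstream of the first coding exon. The cassette ends the RNA early and takes away the rest of the protein as well, so that loss of the RNA and loss of the protein cannot be told apart. The line was sorted for eGFP and grown from clones, and the labels do not give how many clones entered the libraries. ESCs were grown with LIF, 3 µM CHIR99021 (an inhibitor of GSK3) and 1 µM PD0325901 (an inhibitor of MEK). NPCs were seeded at 15000 cells per cm2 on laminin (10 µg/ml) in N2B27 medium for 2 days, so that cell state, medium and surface changed together and cannot be told apart here. The unedited parental cells (WT) and the Grb10 pA line, with the same kind of cassette in both alleles of Grb10, were grown and differentiated in the same way, with 3 libraries per state, and served for comparison.

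ESCs in this medium resemble the preimplantation epiblast and are called naive. On leaving that state they pass through a formative stage, which resembles the early postimplantation epiblast, before lineage genes are taken up. Neural progenitors are commonly recognised by Sox1, and their regional identity by homeobox genes. Podxl encodes podocalyxin, a sialylated transmembrane protein of apical surfaces that binds the actin linker ezrin through its adaptor NHERF.

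The target of the guide was read from the guide sequence of the study and from the annotated Podxl transcript (Podxl-201, 8 exons, 5379 bases). It is shown because it lies at the end of exon 1. The insertion point itself was not read, so how much of the RNA can remain is not fixed by it. The gene lies on the minus strand of chromosome 6, at chr6:31519488-31563981 of GRCm38. In both lines the capitals mark the 5 bases that the start of the guide shares with the end of exon 1 (chr6:31563579-31563583), after which the guide leaves the transcript.
Podxl sgRNA: TAATGgtgagtggacagccg
End of Podxl exon 1: cgcctgcatctcactcccaTAATG
Exon 1 has 403 bases, 7.49% of the transcript. The deposited counts are per gene, so reads before and after the insertion were not told apart.

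Total counts on genes ranged from 3894410 to 5937966 in the 3 NPC libraries and were 4330186, 6416353 and 1907505 in ESC replicates 1, 2 and 3 (all 18 libraries: 1907505 to 8845087). Values are given as normalized counts, that is counts scaled to the mean effective library size of the 18 libraries (4664294), and 3 counts stand for 2.19 to 7.21 normalized counts in these 6 libraries. In a principal component analysis the first component (65.7% of the variance) separated ESCs from NPCs. ESC Podxl pA replicate 3, the shallowest library, stood apart on the third component (4.36%), at 34.5 against 0.1 and -2.2 for the other ESC Podxl pA libraries. ESC Grb10 pA replicate 2 lay as far out on the other side, at -34.2 against -3.4 and -7.3, and held 15.48% of its counts in its 10 most abundant genes, against 6.77% to 11.25% in the other 17 libraries. The lowest correlation of log CPM among the ESC Podxl pA libraries was 0.975, against 0.989 between replicates 1 and 2. Each main result was therefore also computed without ESC Podxl pA replicate 3, and its part in the results was not tested beyond this. The study counts the libraries of a group as biological replicates. The labels do not say whether they came from separate cultures, and p-values measure only the spread between these libraries.

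Podxl itself was checked first. In Podxl pA it was counted at 14, 16 and 60.1 normalized counts in the ESC libraries and at 104, 113 and 97.2 in the NPC libraries. All NPC libraries stood above all ESC libraries, and ESC replicate 3 stood well above the other two. The log2 change was 2.21 (SE 0.25, adjusted p = 5.03e-08), and it was 2.79 without ESC replicate 3. In WT the same gene went from 158, 163 and 123 to 1080, 1150 and 1210 (log2 2.92), and in Grb10 pA from 171, 150 and 196 to 1530, 1710 and 1700 (log2 3.24). Podxl pA thus lay below WT by -2.73 on the log2 scale in ESCs (adjusted p = 2.22e-07) and by -3.45 in NPCs (adjusted p = 9.72e-15). The difference of its change from that in WT was -0.72 on the log2 scale (SE 0.33, adjusted p = 0.456), which did not pass the test, and it was -0.15 without ESC Podxl pA replicate 3. Grb10, the gene truncated in the other line, rose in Podxl pA from 606, 564 and 670 to 2730, 2750 and 2730 (log2 2.17, SE 0.08). Grb10 encodes an adaptor that damps insulin and growth factor receptor signalling. In WT it rose from 593, 586 and 549 to 3590, 3740 and 3800 (log2 2.68). The difference of its change from that in WT did not pass the test (interaction -0.51, SE 0.11, adjusted p = 0.0654). Its level was lower in NPC Podxl pA than in NPC WT by log2 -0.44 (adjusted p = 0.00248), under the size of 0.5 needed for a call. In ESCs that difference was 0.08 (adjusted p = 0.904).

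**Figure D1:**
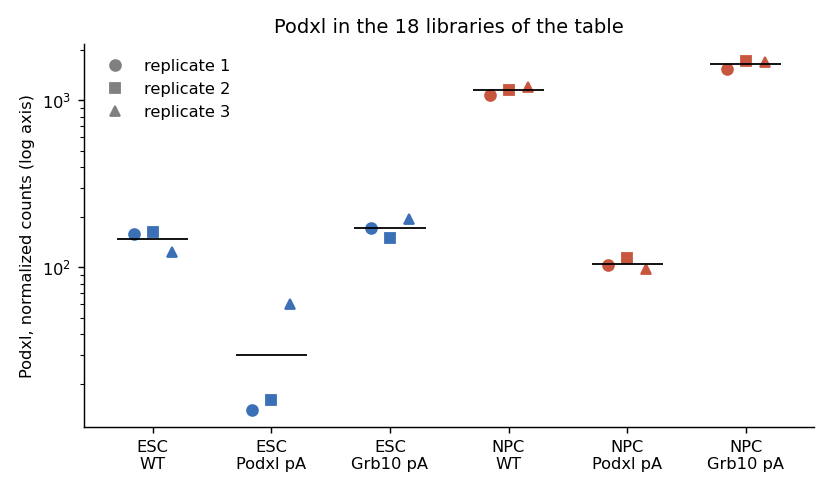
Podxl in the 18 libraries, as normalized counts on a log axis, with a marker shape per replicate and a line at each group mean. Podxl pA lies below WT and Grb10 pA in both states and rises from ESC (14 to 60.1) to NPC (97.2 to 113).

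Of the genes next to Podxl on chromosome 6, Mkln1 was the only one counted highly enough to test. Mkln1 encodes muskelin, a subunit of a ubiquitin ligase. It was counted at 569, 564 and 663 in ESCs and at 485, 482 and 474 in NPCs, with log2 -0.30 (SE 0.09), under the size needed for a call, and its change differed from that in WT by 0.00 (SE 0.12). Plxna4, a semaphorin co-receptor on the other side, was at 8.63, 4.37 and 2.40 in ESCs and at 2.40, 3.51 and 0 in NPCs, too low to test, like Mkln1os, Gm6117 and Gm43154.

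A gene was called where its adjusted p (edgeR quasi-likelihood test over the 13268 genes tested) was at most 0.05 and its log2 change at least 0.5 in size. On differentiation of Podxl pA, 2274 genes were called higher (17.1% of those tested) and 1950 lower (14.7%). These shares are the background for the counts of list members below. The rises were the larger changes, with a median of 1.27 against -0.96 for the falls on the log2 scale, and 611 rises against 322 falls reached log2 2. At log2 4 there were 133 rises and 55 falls. For 4066 of the 4224 called genes the 3 NPC values did not overlap the 3 ESC values, against 7423 (55.9%) of all genes tested. Without ESC replicate 3, 4267 genes were called (2380 higher and 1887 lower), 3907 of them among the 4224. Of the genes called higher, the ESC value was highest in replicate 3 for 42.5%, against 31.0% and 26.5% in replicates 1 and 2.

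The 12 genes that rose most, among called genes averaging 100 normalized counts or more and without overlap between ESC and NPC libraries, a choice that fixes their separation, included 4 that are known from the early endoderm, Cubn, Dab2, Gata6 and Pdgfra. Cubn, which encodes the endocytic receptor cubilin of the visceral endoderm, rose from 0, 4.37 and 52.9 to 2590, 2550 and 2810 (log2 7.95, SE 0.35, 9.94 without ESC replicate 3). Dab2, its endocytic adaptor, rose from 9.71, 18.9 and 45.7 to 1580, 1540 and 1550 (log2 6.26, SE 0.21). In both, ESC replicate 3 was the highest of its group and still far below the NPC libraries. Gata6, a transcription factor that sets primitive endoderm, rose from 6.47, 2.91 and 7.21 to 297, 339 and 357 (log2 6.07, SE 0.26). Pdgfra, a receptor tyrosine kinase of the same lineage, rose from 1.08, 9.47 and 12 to 252, 290 and 285 (log2 5.28, SE 0.24). In bulk RNA, more cells of a type and more RNA per cell cannot be told apart. These values therefore do not say how many cells carried the transcripts.

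Lef1, a transcription factor of the Wnt pathway, rose from 1.08, 4.37 and 7.21 to 356, 356 and 298 (log2 6.46, SE 0.27). Car4, a membrane-bound carbonic anhydrase, rose from 1.08, 4.37 and 48.1 to 694, 705 and 702 (log2 6.09, SE 0.29, 7.81 without ESC replicate 3). Amot, an angiomotin that binds YAP at junctions, rose from 31.3, 23.3 and 55.3 to 2040, 2030 and 2210 (log2 6.05, SE 0.15). Esrp1, an epithelial splicing regulator, rose from 9.71, 6.56 and 9.61 to 248, 242 and 270 (log2 4.94, SE 0.20). ESC replicate 3 was the highest ESC library for Lef1, Car4 and Amot, but not for Esrp1. The others were Fndc3c1 (log2 7.0, SE 0.24), Enpp3, an ectonucleotidase (5.44, SE 0.24), Syt13, a synaptotagmin (5.05, SE 0.36) and Thbs1, the matrix protein thrombospondin-1 (5.02, SE 0.30). For Syt13 and Thbs1, ESC replicate 3 held 33.6 and 26.4 normalized counts against 2.91 or fewer in replicates 1 and 2, and without it their log2 changes were 7.27 and 6.28. In 11 of these 12 genes ESC replicate 3 held the highest ESC value, and all 12 were also called without it.

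The 12 genes that fell most included transcription factors, transporters and an adhesion molecule. Cdx1, a homeobox factor that responds to Wnt signalling, fell from 1110, 1230 and 1410 to 4.79, 8.78 and 6.22 (log2 -7.50, SE 0.21). Jam2, a junctional adhesion molecule, fell from 645, 671 and 774 to 9.59, 1.76 and 6.22 (log2 -6.93, SE 0.24). Prdm14, which restrains FGF signalling and DNA methylation in naive cells, fell from 207, 206 and 180 to 3.6, 2.63 and 4.67 (log2 -5.72, SE 0.28). In all 3 the ESC libraries lay within a narrow range, replicate 3 included. Klf4, a reprogramming factor, fell from 1230, 1210 and 1410 to 73.1, 56.2 and 70 (log2 -4.27, SE 0.13). Tdh, the threonine dehydrogenase on which mouse ESCs depend for one-carbon metabolism, fell from 1800, 1830 and 1810 to 104, 93.9 and 98.8 (log2 -4.20, SE 0.09). Cpt1a, the gatekeeper of mitochondrial fatty acid oxidation, fell from 1030, 1010 and 894 to 57.5, 50.9 and 44.3 (log2 -4.29, SE 0.11). The remaining falls were those of Slc15a1, a peptide transporter (-7.02), Aqp3, a water and glycerol channel (-5.44), Tlx2, a homeobox factor (-5.28), Ntn1, the guidance cue netrin-1 (-4.56), Mras, a RAS-family GTPase (-4.29) and Islr2 (-4.00). Over these 24 genes the adjusted p was at most 5.21e-12 for the rises and 2.63e-14 for the falls. All 24 changed in the same direction in WT and in Grb10 pA, but 8 of them (Car4, Gata6, Amot, Pdgfra, Aqp3, Klf4, Tdh and Islr2) differed in size from Grb10 pA by the test of the difference. None passed the test of a difference of the change from WT, where the smallest adjusted p was 0.167. That test compares changes and not levels. By the same kind of test on levels in NPCs, 4 were higher in Podxl pA than in WT. They were Cubn (log2 1.02, adjusted p = 0.00615), Dab2 (1.04, 4.3e-05), Amot (0.76, 6.58e-05) and Pdgfra (0.80, 0.00286). Ntn1 was lower there (-1.56, 0.0169), and Tlx2 was higher in ESCs (0.81, 0.0399). The remaining genes of the 24 were not called in either state.

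**Figure D2:**
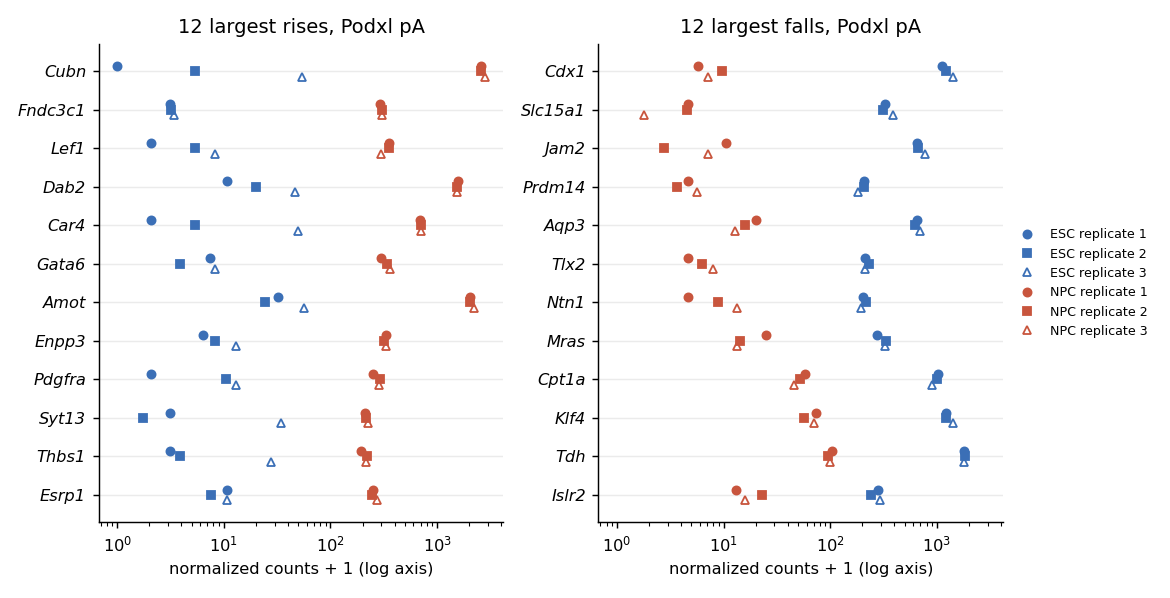
Normalized counts plus 1, on a log axis, of the 12 genes that rose most and the 12 that fell most in Podxl pA, with a point per library. The genes were chosen from those whose groups do not overlap, and ESC replicate 3 (open blue triangle) lies to the right of the other ESC libraries for Cubn, Dab2, Car4, Syt13 and Thbs1.

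Exit from the naive state was followed with 20 naive pluripotency genes, all tested. One rose and 19 fell, against 14.7% of all genes falling, with a median log2 change of -3.03 (-0.02 over all genes tested). Their summed level went from 29100 to 29600 normalized counts in ESCs to 6420 to 6640 in NPCs. Nanog, which stabilises the naive network, fell from 4090, 4000 and 4660 to 464, 489 and 495 (log2 -3.13, SE 0.09). Esrrb, an orphan nuclear receptor, fell from 3110, 3050 and 3230 to 243, 248 and 279 (log2 -3.60, SE 0.11), and Tfcp2l1 fell by a similar amount (log2 -3.12, SE 0.09). The smallest falls were those of Dppa5a (log2 -0.75, SE 0.14) and Klf5 (-0.81, SE 0.12), which kept 2340 to 2390 and 1170 to 1230 normalized counts in NPCs. The riser was Dppa3, also a germ cell and oocyte gene, at 2.16, 1.46 and 2.40 in ESCs and at 19.2, 7.90 and 14 in NPCs (log2 2.77, SE 0.55). At day 2 the naive genes as a list were lower but still counted.

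The 12 core pluripotency genes, which are shared by naive and later states, were split, with 4 higher, 3 lower and 5 neither (median log2 0.08). Pou5f1, the core factor Oct4, fell from 2870, 2830 and 2180 to 1410, 1550 and 1350 (log2 -0.87, SE 0.12). Sox2 fell from 1270, 1200 and 1180 to 475, 462 and 460 (log2 -1.39, SE 0.10), and Tdgf1, the Nodal co-receptor Cripto, fell as well (-1.15, SE 0.12). Lin28a, which binds let-7 precursors, rose from 597, 640 and 666 to 2850, 2740 and 2940 (log2 2.17, SE 0.08). Utf1 (1.78, SE 0.11) and L1td1 (0.68, SE 0.09) rose with it. Of 15 formative epiblast genes, 12 rose and none fell (median log2 2.49, against 17.1% of all genes called higher). Fgf5, the classical marker of the postimplantation epiblast, had no count in the ESC libraries and 58.7, 43 and 54.4 normalized counts in NPCs, which is at least 46.6-fold higher when the ESC group is set at 3 counts. Pou3f1, the factor Oct6, rose from 18.3, 15.3 and 24 to 380, 384 and 351 (log2 4.37, SE 0.15), and Otx2 from 6.47, 2.19 and 7.21 to 147, 135 and 145 (4.96, SE 0.27). Foxd3 (log2 -0.45, SE 0.38), Tcf7l1 (-0.31, SE 0.13) and Zic2 (0.34, SE 0.13) were not called.

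Of 20 neural progenitor genes, 13 were counted highly enough to test, and 10 rose, 1 fell and 2 were not called (median log2 2.59). Of all genes tested, 17.1% were called higher and 14.7% lower. Sox1, the definitive early neural factor, rose from 27, 24.8 and 31.2 to 245, 228 and 243 (log2 3.16, SE 0.16). Sox11, a factor of neural precursors, rose from 20.5, 25.5 and 36 to 277, 264 and 271 (3.40, SE 0.18). Meis1, a homeobox cofactor, rose from 2.16, 5.83 and 0 to 56.3, 76.4 and 80.1 (4.25, SE 0.40). In these 3 genes the NPC libraries lay clear of the ESC libraries. Pax6 rose to a low level, from 7.55, 9.47 and 4.81 to 27.6, 31.6 and 33.4 (log2 1.94, SE 0.38), and Nes, which encodes the intermediate filament nestin, was at 98.2, 87.4 and 88.9 in ESCs and 119, 111 and 114 in NPCs (0.32, SE 0.15). Msi1, an RNA-binding protein of neural stem cells, fell (log2 -0.70, SE 0.11). Hes5 and Fabp7, which mark established neural progenitors and radial glia, reached at most 2.40 and 0.878 normalized counts in any NPC library.

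Regional genes were read next. Of 12 forebrain and eye field genes only Hesx1 and Lhx2 could be tested and neither was called, while Six6 had no count in any of the 6 libraries. Of 14 midbrain and hindbrain genes, 6 were tested, 4 rose and 1 fell, against 17.1% higher and 14.7% lower over all genes tested. Fgf8, a signal of the midbrain-hindbrain organiser, rose from a single count over the ESC libraries to 14.4, 14.9 and 13.2 normalized counts, a ratio of 38.3 (95% counting interval 6.54 to 1550). Irx3, a homeobox factor, rose from 5.40, 5.10 and 7.21 to 39.6, 35.1 and 30.3. Counting intervals cover counting error only. En2 passed the test (log2 0.63, SE 0.23) but not without ESC replicate 3 (adjusted p = 0.0605). Of 10 caudal genes, 7 were tested, 2 rose and 5 fell. Most of the summed level of this list in ESCs, 1240 to 1500 normalized counts, was Cdx1, given above. T, the mesoderm and node factor brachyury, fell from 22.7, 25.5 and 16.8 to 1.20, 4.39 and 2.33 (log2 -2.99, SE 0.41). Wnt3a, a caudal Wnt ligand, was at 43.2, 36.4 and 26.4 in ESCs and at 1 count over the NPC libraries, lower by a ratio of 121 (interval 21.3 to 4840). Cdx2 (1.13, SE 0.37) and Cdx4 (2.38, SE 0.71) rose, to 36, 21.1 and 30.3 and to 7.19, 10.5 and 7 normalized counts. Mnx1 fell (-1.24), though not without ESC replicate 3.

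Neuronal genes did not move together. Of 22 genes of neurogenesis and early neurons, 13 were tested, 6 rose and 3 fell (median log2 0.31). The shares over all genes tested were 17.1% higher and 14.7% lower. Crmp1, a collapsin response mediator, rose from 31.3, 21.9 and 33.6 to 236, 248 and 251 (3.16, SE 0.16). Insm1, a factor of neurogenic progenitors, rose from 2 counts to 25.2, 31.6 and 28.8 (ratio 39.2, interval 10.5 to 328). Tubb3, the neuronal tubulin that ESCs also carry, fell from 841, 796 and 800 to 243, 237 and 228 (-1.79, SE 0.09), and Mapt, which encodes tau, fell (-2.05, SE 0.22), as did Stmn2 (-1.33, SE 0.10). The proneural factors Neurog1 and Neurog2 had no count in any of the 6 libraries and Dcx had at most 1.20 normalized counts. These proneural and migrating-neuron markers were not detectable at this depth. Sox1, which the study stained as protein to check its NPCs, was present as RNA. Of other neural progenitor genes listed here, Sox11 was present, while Hes5 and Fabp7 were at or near 0.

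Markers of other lineages that the dish could hold were read in the same way. Of 21 primitive and visceral endoderm genes, 18 were tested, 16 rose and none fell (median log2 3.93), against 17.1% of all genes called higher. Their summed level went from 2470 to 2750 normalized counts in ESCs to 14400 to 15200 in NPCs. Beside the genes named above, Gata4 rose from 19.4, 20.4 and 26.4 to 273, 252 and 233 (log2 3.57, SE 0.17), and Sox17, a further endoderm factor, from 6.47, 5.83 and 0 to 61.1, 55.3 and 79.3 (3.65, SE 0.36). Foxa2 rose from 1 count in ESCs to 51.5, 55.3 and 45.1 (ratio 137, interval 24.2 to 5430). Basement membrane genes that this lineage makes in quantity rose too, among them Lamb1, from 97.1, 92.5 and 118 to 1710, 1710 and 1750 (4.12, SE 0.11), and Col4a1, from 160, 146 and 175 to 2290, 2460 and 2600 (3.96, SE 0.13). The members that were not called were Apoe (0.43) and Sparc (0.19). Genes of mature visceral endoderm stayed low, since Afp reached at most 5.27, Ttr 9.66 and Apoa1 7.90 normalized counts. In WT 16 and in Grb10 pA 17 of the same list were called higher, with medians of 3.62 and 2.99. Whether these transcripts came from the cells that carried Sox1 was not tested.

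Of 18 mesoderm genes, 8 were tested, 4 rose and 1 fell, against 17.1% higher and 14.7% lower over all genes tested. Hand1 rose from 1 count to 21.6, 21.1 and 18.7 (ratio 55, interval 9.53 to 2200) and Meox1 from 3 counts to 45.5, 54.4 and 59.9 (ratio 49.1, interval 16.5 to 241). Eomes, a mesendoderm factor, was at 152, 133 and 178 in ESCs and 151, 174 and 179 in NPCs (0.17, SE 0.14), and Mixl1 and Mesp1 were too low to test. Twist1 was called (0.73, SE 0.30) but not without ESC replicate 3 (adjusted p = 0.111). Of 18 genes of surface ectoderm and the neural border, 12 were tested, 5 rose and 3 fell. Krt18, a simple epithelial keratin, rose from 48.6, 49.6 and 67.3 to 266, 242 and 221 (2.20, SE 0.14), Krt17 fell (-4.53, SE 0.29), and Krt5 and Trp63, which define stratified epithelium, had no count. Of 10 neural crest genes, 5 were tested, and 3 fell, led by Ngfr, the low-affinity neurotrophin receptor, from 684, 707 and 735 to 67.1, 65.8 and 63.8 (-3.43, SE 0.13), while 1 rose (Ets1, 2.59, SE 0.26) and Sox10 stayed at or below 5.99. Of 13 germline genes tested, 3 rose and 4 fell, with Tdrd1 (2.60, SE 0.41) and Rpl10l (-2.15, SE 0.14) at the ends. Of 10 genes of the 2-cell-like state, Zscan4c and Zscan4d were tested and both rose, Zscan4d from 2.16, 1.46 and 2.40 to 26.4, 23.7 and 22.6 (3.61, SE 0.51). The members of that family are near-identical copies, so that reads may be shared between them and each value is uncertain.

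**Figure D3:**
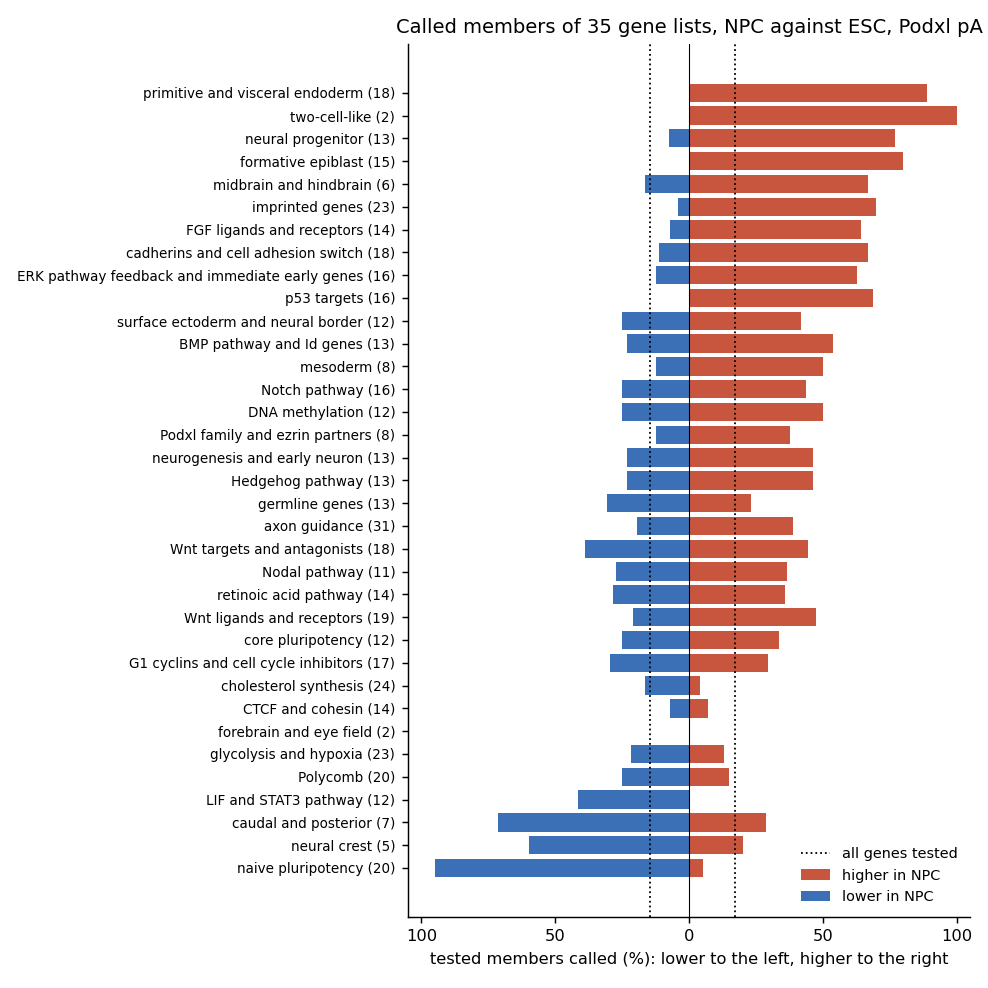
Share of the tested members of each of the 35 gene lists called lower (left, blue) or higher (right, red) in NPC than in ESC Podxl pA, ordered by median log2 change, with the number tested in brackets. The dotted lines mark all genes tested (17.1% higher and 14.7% lower), and the naive genes lie at one end and the endoderm genes at the other.

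The pathways addressed by the ESC medium were described next. LIF holds ESCs naive through STAT3. Of 12 genes of this pathway none rose and 5 fell, against 17.1% higher and 14.7% lower over all genes tested. Socs3, its feedback inhibitor, fell from 285, 318 and 348 to 34.8, 36.9 and 31.1 (-3.20, SE 0.18). Bcl3 (-3.74, SE 0.17), Stat3 (-1.93, SE 0.08), the receptor Lifr (-1.08, SE 0.12) and the co-receptor Il6st (-0.56, SE 0.08) fell too, while Jak1 (-0.10, SE 0.09) and Socs2 (0.21, SE 0.12) were not called. Of 16 tested genes of ERK feedback and the immediate early response, 10 rose and 2 fell (median log2 1.01). Dusp6, a phosphatase of ERK, rose from 100, 114 and 127 to 980, 1070 and 1020 (3.19, SE 0.09), and Dusp4 from 16.2, 17.5 and 24 to 517, 513 and 526 (4.83, SE 0.16). Egr1 (3.21, SE 0.46), Myc (3.12, SE 0.20) and Spry4 (1.25, SE 0.13) rose with them, but Etv4 fell (-0.60, SE 0.10) and Etv5 was not called (-0.20, SE 0.07). Among 14 FGF ligands and receptors tested, 9 rose and 1 fell. The receptor Fgfr2 rose from 8.63, 6.56 and 16.8 to 266, 270 and 278 (4.91, SE 0.22) and Fgfr3 rose (2.10, SE 0.26), whereas Fgfr1, the main receptor of ESCs, was at 777, 721 and 791 and then 990, 982 and 1030 (0.40, SE 0.08). The ligand Fgf4 fell from 538, 485 and 622 to 241, 242 and 252 (-1.14, SE 0.10). The members Fgf5 and Fgf8 are given above.

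Wnt targets and antagonists went both ways, with 8 of 18 tested higher and 7 lower, against 17.1% and 14.7% over all genes tested. Beside Cdx1, the feedback genes Sp5 (from 91.7, 109 and 132 to 5.99, 2.63 and 3.89, log2 -4.72, SE 0.32), Notum (-2.24, SE 0.18) and Axin2 (-1.53, SE 0.13) fell. Beside Lef1, the secreted antagonist Dkk1 rose from no count to 16.8, 26.3 and 28 (at least 22.2-fold higher) and Sfrp2 rose (1.74, SE 0.19). Tcf7 (-0.54, SE 0.13), Apcdd1 (-0.51, SE 0.18) and Dkk3 (1.08, SE 0.43) were called here but not without ESC replicate 3. Of 19 Wnt ligands and receptors tested, 9 rose and 4 fell. Wnt8a, a ligand of the epiblast, rose from 1 count to 27.6, 30.7 and 24.9 (ratio 75, interval 13.1 to 2990). The receptors Fzd2 (2.79, SE 0.18) and Fzd7 (1.41, SE 0.11) rose and Fzd10 (-2.39, SE 0.14) and Fzd5 (-1.80, SE 0.10) fell, so that the set of receptors changed while the co-receptors Lrp5 (0.21, SE 0.11) and Lrp6 (-0.06, SE 0.07) were not called.

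Notch signalling passes between neighbouring cells. Of its 16 tested genes, 7 rose and 4 fell. The share over all genes tested, 17.1% higher and 14.7% lower, applies to BMP and Nodal below as well. The receptor Notch3 rose from 144, 144 and 149 to 692, 683 and 826 (2.34, SE 0.13), the ligand Dll1 rose from 4.32, 8.74 and 7.21 to 41.9, 38.6 and 49.8 (2.63, SE 0.32), and the glycosyltransferase Lfng rose (3.69, SE 0.37). Notch4 fell from 219, 222 and 267 to 14.4, 14.9 and 19.4 (-3.80, SE 0.20), and the target Hes1 fell (-1.03, SE 0.16). For BMP, 7 of 13 rose and 3 fell, with the target genes Id2 (from 14, 16 and 31.2 to 186, 184 and 189, log2 3.37, SE 0.23), Id1 (2.22, SE 0.20) and Id3 (1.55, SE 0.23) higher, and the inhibitor Smad7 (-1.39, SE 0.09) and the ligand Bmp4 (-1.06, SE 0.17) lower. For Nodal, 4 of 11 rose and 3 fell. The ligand Inhbb fell from 151, 151 and 142 to 1.20, 0 and 3.11 (-6.49, SE 0.37), and the antagonists split, Lefty1 rising from 353, 322 and 324 to 1470, 1520 and 1630 (2.21, SE 0.12) and Lefty2 falling (-0.84, SE 0.09). Nodal itself was at 373, 328 and 365 in ESCs and 387, 414 and 390 in NPCs (0.17, SE 0.08).

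Of 14 retinoic acid genes tested, 5 rose and 4 fell, against 17.1% higher and 14.7% lower over all genes tested. Cyp26a1, which degrades retinoic acid, rose from 2.16, 10.2 and 4.81 to 79.1, 100 and 100 (3.82, SE 0.27) and the binding protein Crabp2 rose (3.78, SE 0.32), while Crabp1 fell (-1.86, SE 0.21). Of 13 Hedgehog genes tested, 6 rose and 3 fell. Gli3 rose from 134, 134 and 142 to 319, 305 and 316 (1.21, SE 0.11) and Gli2 fell from 335, 263 and 377 to 117, 94.8 and 97.2 (-1.63, SE 0.14). The target and receptor Ptch1 was at 372, 386 and 389 and then 416, 361 and 390 (0.02, SE 0.10), Gli1 was not called (-0.13, SE 0.28), and Shh reached at most 0.729 normalized counts.

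Because podocalyxin is a surface protein, its relatives and adhesion genes were listed. Of 8 genes of the podocalyxin family and its ezrin partners, Podxl included, 3 rose and 1 fell. The shares over all genes tested were 17.1% higher and 14.7% lower. Cd34, the closest relative, rose from 22.7, 13.8 and 12 to 70.7, 65.8 and 63 (1.99, SE 0.27) and the adaptor Slc9a3r1 rose (0.64, SE 0.13). Podxl2, which encodes endoglycan, was at 7.55, 5.83 and 9.61 and then 12, 8.78 and 7.78 (0.38, SE 0.40), and Ezr, which encodes ezrin, was not called (0.20, SE 0.07). Cd34 is therefore the only other member of the family in this list that was called. Slc9a3r2 fell (-0.50, SE 0.14), though not without ESC replicate 3. Of 18 cadherins and adhesion genes tested, 12 rose and 2 fell (median log2 1.26). Cdh1, which encodes E-cadherin, was at 3810, 3800 and 4190 in ESCs and 3730, 3650 and 3680 in NPCs (-0.09, SE 0.07). Cdh2, which encodes N-cadherin, rose from 12.9, 16 and 14.4 to 85.1, 89.5 and 91.8 (2.59, SE 0.21). Per length, as RPKM, which corrects for library size and for the merged exon length, the NPC level of Cdh1 was 173 and that of Cdh2 2.36, so that E-cadherin RNA was by far the higher at day 2. The epithelial genes Cldn6 (2.80, SE 0.12), Epcam (1.66, SE 0.10) and Crb2 (3.61, SE 0.51) rose, and Zeb1, a repressor of epithelial genes, fell (-1.38, SE 0.16) while its relative Zeb2 rose (2.64, SE 0.28). Of 31 axon guidance genes tested, 12 rose and 6 fell (median log2 0.26), with Efnb2 rising from 4.32, 16 and 19.2 to 283, 326 and 285 (4.56, SE 0.22) and Epha4, a receptor of ephrins, falling (-2.14, SE 0.15) beside Ntn1.

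Chromatin genes were mixed. Of 12 DNA methylation genes, 6 rose and 3 fell. The de novo methyltransferase genes rose together, Dnmt3b from 355, 360 and 396 to 2080, 2110 and 2020 (2.49, SE 0.08), Dnmt3a from 437, 405 and 433 to 1540, 1500 and 1490 (1.83, SE 0.11) and their cofactor Dnmt3l from 135, 109 and 175 to 1360, 1310 and 1460 (3.38, SE 0.13). The maintenance genes Dnmt1 (-0.48, SE 0.09) and Uhrf1 (-0.42, SE 0.09) were under the size for a call. Tet1 (-0.56, SE 0.12) and Tet2 (-0.55, SE 0.11) were called lower, but not without ESC replicate 3. Of 20 Polycomb genes tested, 3 rose and 5 fell (median log2 -0.19), against 17.1% higher and 14.7% lower over all genes tested. Phc1 (0.82, SE 0.08) was among those that rose and Pcgf1 (-1.09, SE 0.17) among those that fell. Of 14 genes of CTCF, cohesin and their partners, 1 rose and 1 fell (median log2 -0.09). Ctcf was at 1150, 1090 and 1170 in ESCs and 991, 1030 and 1020 in NPCs (-0.16, SE 0.07). The riser was the cohesin subunit gene Stag2, from 426, 469 and 473 to 843, 823 and 835 (0.87, SE 0.10), and the faller Patz1 (-0.81, SE 0.08).

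Imprinted genes, which are transcribed from the allele of one parent, mostly rose. Of 23 tested, 16 rose and 1 fell (median log2 1.35), against 17.1% and 14.7% of all genes tested. The summed level went from 4960 to 6870 normalized counts in ESCs to 43400 to 45600 in NPCs. Most of the NPC sum was Peg10, a gene derived from a retrotransposon, which rose from 1050, 1010 and 2130 to 34000, 34100 and 36200 (4.66, SE 0.19, 5.09 without ESC replicate 3). It took 0.0216% to 0.0464% of all counts in the ESC libraries and 0.728% to 0.783% in the NPC libraries. Igf2, a fetal growth factor, rose from 1 count to 75.5, 59.7 and 55.2 (ratio 168, interval 29.9 to 6680) and the neighbouring noncoding RNA H19 from 2 counts to 47.9, 58.8 and 60.7 (ratio 77.1, interval 21 to 641). At the Dlk1-Meg3 cluster, Meg3 (1.35, SE 0.14), Rian (1.25, SE 0.12), Mirg (2.45, SE 0.20) and Dlk1 (1.81, SE 0.29) all rose. The faller was Plagl1, a zinc finger factor, from 643, 622 and 870 to 102, 75.5 and 79.3 (-3.05, SE 0.17). Overlapping transcripts at such loci were not told apart by the counting, so that the value of any one of them is uncertain.

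Metabolic and cell cycle genes were listed last. Of 23 glycolysis and hypoxia genes, 3 rose and 5 fell (median log2 -0.15), against 17.1% higher and 14.7% lower over all genes tested. Egln3, an oxygen sensor, rose from 138, 136 and 161 to 547, 497 and 517 (1.87, SE 0.12), and the hexokinase Hk1 (-1.50, SE 0.09) and Pfkp (-1.57, SE 0.09) fell. Of 24 cholesterol synthesis genes, 1 rose (Hmgcs1, 0.56, SE 0.09) and 4 fell, led by Tm7sf2 (-1.50, SE 0.15). Of 17 G1 cyclins and cell cycle inhibitors, 5 rose and 5 fell. The D-type cyclins split, as Ccnd2 rose from 59.3, 63.4 and 62.5 to 318, 334 and 328 (2.40, SE 0.14) and Ccnd3 fell from 1140, 1100 and 1170 to 557, 589 and 558 (-1.0, SE 0.09). Cdkn1a, which encodes the inhibitor p21, fell from 977, 978 and 1110 to 315, 327 and 299 (-1.70, SE 0.09). It is a classical target of p53, yet of the 16 other p53 targets tested 11 rose and none fell (median log2 0.88). These included Mdm2, which degrades p53 (1.03, SE 0.09), Ccng1 (1.13, SE 0.10), the proapoptotic Bbc3 (1.24, SE 0.15) and Perp (1.42, SE 0.14). Aen (0.51, SE 0.09) and, among the G1 genes, Rbl1 (-0.56) were called, but not without ESC replicate 3.

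The change in Podxl pA was then set against that in the other lines, with which it shares no library. Across the 13268 genes, the log2 changes correlated with those in WT at r = 0.91 and with those in Grb10 pA at r = 0.87, as a description across genes, which are not independent replicates. Of the 4224 genes called in Podxl pA, 98.1% changed in the same direction in WT and 95.5% in Grb10 pA. The difference of the changes was tested as an interaction. Between Podxl pA and WT it passed for 13 genes (0.0980% of those tested, 9 with a higher and 4 with a lower change in Podxl pA), and 1355 genes had an unadjusted p under 0.05. The median size of the difference was 0.19 on the log2 scale and its median SE 0.22, so that smaller differences were not resolved with 3 libraries. Without ESC Podxl pA replicate 3 the test gave 25 genes and with DESeq2 36, with all 13 among them each time. Other single libraries mattered more to these calls, since 6 of the 13 were still called without ESC Podxl pA replicate 2 or ESC WT replicate 1, and 7 without ESC WT replicate 2 or NPC Podxl pA replicate 2.

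Of the 13 genes, 5 are encoded by the mitochondrial genome. mt-Nd4, a subunit of respiratory complex I, was at 250, 313 and 449 normalized counts in ESC Podxl pA and 1600, 1660 and 1140 in NPC Podxl pA. In WT it was at 769, 547 and 355 in ESCs and at 308, 205 and 586 in NPCs. The groups of Podxl pA did not overlap while those of WT did, and the change was higher in Podxl pA by log2 2.87 (SE 0.37, adjusted p = 0.000457). mt-Co1, a subunit of complex IV, went from 2340, 2840 and 3930 to 10500, 10000 and 9260 in Podxl pA, and from 5080, 3830 and 2710 to 3010, 1410 and 3630 in WT (difference 2.26, SE 0.38, adjusted p = 0.00654). mt-Cytb of complex III (2.56, SE 0.39), mt-Nd5 (2.32, SE 0.31) and mt-Nd6 (2.27, SE 0.35) differed likewise. In Grb10 pA the same genes rose by log2 0.76 to 1.21, mt-Nd4 from 319, 213 and 265 to 429, 595 and 618, and none of the 5 passed the test of a difference from Grb10 pA (adjusted p 0.0598 to 0.485). mRNAs of the mitochondrial genome took 0.123%, 0.149% and 0.216% of counts in ESC Podxl pA and 0.62%, 0.588% and 0.471% in NPC Podxl pA. 6 mitochondrial mRNAs (mt-Atp6, mt-Atp8, mt-Co2, mt-Co3, mt-Nd3 and mt-Nd4l) had no count in any library, so that these shares cover the others only. The other 12 libraries lay between 0.068% and 0.278%, so that the NPC Podxl pA libraries were the highest of the 18. RNA was depleted of rRNA, and in the same libraries the mitochondrial rRNA mt-Rnr1 varied widely within a group, at 10600, 5810 and 1150 in NPC Podxl pA against 548, 619 and 305 in ESC Podxl pA. The part of the depletion or of RNA recovery in these values was not tested.

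**Figure D4:**
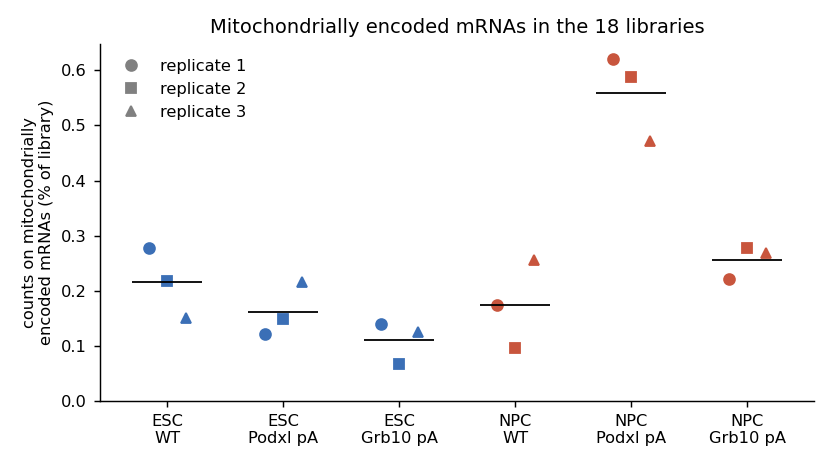
Counts on mitochondrially encoded mRNAs as a percentage of each of the 18 libraries, with a marker shape per replicate and a line at each group mean. The 3 NPC Podxl pA libraries (0.471% to 0.62%) lie above all others, none of which exceeds 0.278%.

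The other 8 genes are nuclear and differed by less. Ccn2, a secreted target of YAP, rose from 34.5, 41.5 and 57.7 to 372, 352 and 360 in Podxl pA and from 17.3, 21.6 and 32.6 to 515, 499 and 467 in WT, a change lower by log2 -1.36 (SE 0.24, adjusted p = 0.0111). Cnn2, which encodes the actin-binding calponin 2, fell from 234, 279 and 293 to 120, 135 and 122 in Podxl pA, while in WT it was at 191, 206 and 212 and then 180, 221 and 223 (difference -1.13, SE 0.18, adjusted p = 0.00329). Tubb3 fell further than in WT, where it went from 667, 635 and 676 to 337, 281 and 291 (difference -0.66, SE 0.12). Lin28a started higher, at 597 to 666 against 422, 428 and 489 in ESC WT, and ended close to the 2930, 3230 and 3100 of NPC WT (difference -0.63, SE 0.12). Dnah8, an axonemal dynein, started lower, at 202, 190 and 228 against 391, 372 and 326 in ESC WT, and ended at 49.1, 50 and 57.5 against 49.8, 47.8 and 48.7 (difference 0.96, SE 0.20). Dlc1, a GTPase-activating protein, fell less than in WT (0.79, SE 0.14), and Ubn2 (0.64, SE 0.13) and the noncoding RNA Malat1 (0.63, SE 0.13) were also higher in their change. Dnah8, Ubn2 and Malat1 passed the interaction test only just (adjusted p = 0.0499 for each). Ubn2 itself hardly changed in Podxl pA (log2 -0.01, SE 0.09). Of the 13, Ccn2 (adjusted p = 0.000981) and Cnn2 (adjusted p = 0.00694) were also called in the test against Grb10 pA. The lists above held few of the 13, with 1 each among the core pluripotency and neurogenesis genes (Lin28a and Tubb3) and none in the other 33.

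**Figure D5:**
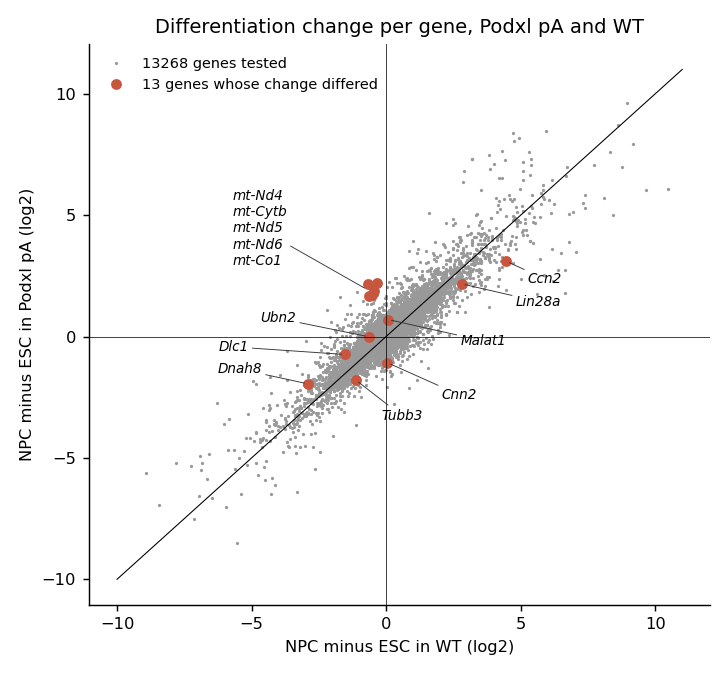
Log2 change from ESC to NPC in Podxl pA against that in WT for the 13268 genes tested, with the 13 genes whose change differed in red and the line of equal change. Most genes lie along the line, and the 5 mitochondrial mRNAs lie above it, between log2 1.65 and 2.21 in Podxl pA and between -0.69 and -0.35 in WT.

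Between Podxl pA and Grb10 pA the change differed for 736 genes (5.55% of those tested, 472 higher and 264 lower in Podxl pA), and for 889 without ESC Grb10 pA replicate 2, with 636 of the 736 among them. Endoderm genes were among the higher ones, as Gata6 went from 18.2, 6.44 and 13.3 to 101, 136 and 144 in Grb10 pA (difference 2.87, SE 0.48, adjusted p = 0.000404) and Pdgfra from 10.1, 14.5 and 7.74 to 115, 103 and 112 (difference 1.88, SE 0.46). Lama1 (1.32, SE 0.17), Lamb1 (1.11, SE 0.15), Col4a1 (0.91, SE 0.18) and Col4a2 (1.13, SE 0.20) differed in the same direction, which makes 6 of the 18 endoderm genes tested. The fall of naive genes differed for 11 of 20, without a common direction. Klf4 (1.17, SE 0.21) and Tdh (1.13, SE 0.15) fell less in Podxl pA than in Grb10 pA, and Nanog (-0.79, SE 0.12) and Esrrb (-0.85, SE 0.14) fell more. Sox1 rose more in Podxl pA (1.22, SE 0.25), and Dnmt3l rose less, reaching 2700, 2840 and 2770 in NPC Grb10 pA (-2.09, SE 0.20, adjusted p = 3.46e-07). Fzd2 (-1.76, SE 0.34) and Car4 (-4.36, SE 1.08) rose less as well, but the difference for Car4 was -2.66 and no longer called without ESC Podxl pA replicate 3 (adjusted p = 0.0807). Gprc5a fell in Podxl pA and rose in Grb10 pA, from 48.4, 56.4 and 45.3 to 145, 230 and 214 (-2.79, SE 0.25), and Plcd1 reached 247, 216 and 227 in NPC Grb10 pA against 55.1, 50.9 and 62.2 in NPC Podxl pA (-1.80, SE 0.21). H3f4 rose in Podxl pA and was at 57.7, 46.5 and 36.7 in NPC Grb10 pA (1.93, SE 0.32). Gm23935 and Gm37194 differed by 3.21 and 2.92, but Gm23935, annotated as a miRNA, ranged from 14800 to 213000 normalized counts over the 18 libraries, and its value is uncertain.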

How the data were processed

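RNA was extracted from the ESCs and NPCs of each line, depleted of rRNA and sequenced. The submitters' processing notes name STAR and the mm10 genome, and the methods name featureCounts on genes. The authors deposited whole-number counts per gene and library, not normalized, in a table of 55291 gene symbols, and the deposited file is marked as counted without strand, so that overlapping genes on opposite strands were not told apart. Of these symbols, 53292 (96.4%) were found in GENCODE M21 (GRCm38), from which positions and lengths were taken. The table held 3 columns that match no sample and were not used here. The table of the CTCF rescue lines was not used here.

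Groups were taken from the labels. Genes were kept by filterByExpr over the 18 libraries of the table (13268 genes), normalized by TMM and fitted in edgeR (version 4.0.16, R 4.3.3) with 1 mean per group. Contrasts were tested by the quasi-likelihood F test with Benjamini-Hochberg adjustment over all genes tested, two-sided. A gene was called at an adjusted p of at most 0.05 and a log2 change of at least 0.5 in size. Differences between lines were tested as interactions in the same fit. The SE was taken from the log2 change and its F. A gene with no count in a group was set at 3 counts over that group for the bound on its fold, and for 1 to 3 counts an exact counting interval (95%) was computed, which covers counting error only. Scripts were tested on simulated data.

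The members and the gene lists were chosen with earlier results of these data known. The genes named are the 12 largest rises and falls among called genes that averaged 100 normalized counts or more and whose groups did not overlap, up to 5 interactions per direction above the same average, Podxl, Grb10 and the neighbours of Podxl, and examples from 35 gene lists (607 symbols, 486 tested). Alternatives were DESeq2 (1.42.0), its size factors, other filters, samples and thresholds, a block for the replicate number and leaving out each library. Same-numbered ESC and NPC libraries of Podxl pA did not deviate together (r = 0.00, 0.03 and 0.01), so that no pairing by number was seen. The labels do not say whether they were paired. Some members of the lists are not reported here by name.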

Additional observations from a re-analysis of the deposited data

Results flagged for a closer look

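The differentiation change of some genes differed between Podxl pA and another line by the test of the difference itself. Against WT the difference (log2, Podxl pA minus WT) was 2.87 for mt-Nd4, 2.56 for mt-Cytb, 2.32 for mt-Nd5, 2.27 for mt-Nd6 and 2.26 for mt-Co1, all of the mitochondrial genome, and -1.36 for Ccn2, -1.13 for Cnn2, -0.66 for Tubb3 and -0.63 for Lin28a. The mitochondrial genes and Cnn2 were called whichever single library was left out. Ccn2 was not called without ESC WT replicate 1 or 2 or without ESC Podxl pA replicate 2, and Tubb3 and Lin28a lost their call without each of these and without some other libraries. Against Grb10 pA it was 3.21 for Gm23935, 2.92 for Gm37194, 2.87 for Gata6, 1.93 for H3f4 and 1.88 for Pdgfra. It was -4.36 for Car4, -2.79 for Gprc5a, -2.09 for Dnmt3l, -1.80 for Plcd1 and -1.76 for Fzd2. The value for Car4 was -2.66 without ESC Podxl pA replicate 3 and that for Pdgfra 1.35 without ESC Podxl pA replicate 1, neither of them called. Beyond leaving out each library in turn, groups of 3 libraries were not examined gene by gene for single outlying values.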

How the results depend on the processing

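The count of genes called in Podxl pA (4224) was 2533 with at least 10 counts required in every library and 2349 at a log2 change of at least 1. Leaving out each library in turn gave 3866 to 4267, and Podxl's log2 change (2.21) was then 1.85 to 2.79, highest without ESC Podxl pA replicate 3. The 13 genes whose change differed from WT became 36 with DESeq2, 108 with no filter on low counts, 56 when only the libraries compared entered the fit, 6 at an adjusted p of at most 0.01 and 7 at a log2 difference of at least 1. Without 1 library each this count was 6 to 28. It was 6 without ESC Podxl pA replicate 2, 7 without ESC WT replicate 1, ESC WT replicate 2 or NPC Podxl pA replicate 2, 25 without ESC Podxl pA replicate 3 and 28 without ESC WT replicate 3. The 736 genes that differed from Grb10 pA became 316 at an adjusted p of at most 0.01 and 263 at a log2 difference of at least 1, and 518 to 889 without 1 library each. The causes were not tested.

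With the replicate number as a block, 4042 genes were called in Podxl pA, 7 differed from WT and 549 from Grb10 pA, and Podxl's log2 change was 2.16. Whether the numbers pair the libraries is not known from the labels. Among list members, Krt19, Grhl3, Wnt5b, Aldh1a2, Aldh1a3, Phlda2 and Polk were called in Podxl pA without ESC replicate 3 and not with it, and Ndn was called with it and not without. Of the added groups, Lats2, Wwtr1 and Gabarap lost their call and Lrp8 and Etfa gained one, which left 7 higher and 1 lower in the Hippo pathway and 10 lower in autophagy. Gli1, not called, was at -0.13 with that library and 0.22 without it. The 12 largest rises and 12 largest falls and the differences between lines flagged above kept their direction under each alternative run. Of 317 values of the log2 changes of these 24 genes all kept their call, of 200 differences from WT 23 lost it, and of 196 from Grb10 pA 4 did. The differences from WT counted here include those of Podxl, which was never called and so could not lose a call. Dnah8, Dlc1, Ubn2 and Malat1 are not among them. Of 980 counts over gene lists, 87 moved by more than 1.5 times. Counts per library limit genes under about 10 normalized counts, and ESC Podxl pA replicate 3 is the shallowest library.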

Other observations

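Further gene groups were chosen after values had been seen and are given as values only. Of those tested, 8 of 15 basement membrane genes were called higher and 2 lower, and 5 and 5 of 16 endocytosis genes. For the Hippo pathway it was 8 and 2 of 20 genes, and for Hox genes 10 and 4 of 18. Mitochondrially encoded mRNA and rRNA genes gave 9 and 0 of 9. With the tRNA genes of that genome, 11 of 12 were called higher and 0 lower. The shares over all genes tested were 17.1% higher and 14.7% lower. The basement membrane genes beyond the endoderm list included Col18a1, the collagen of endostatin, from 421, 455 and 483 to 3080, 3210 and 3150 (log2 2.80, SE 0.11), and Pxdn, which crosslinks collagen IV, from 69.1, 69.2 and 118 to 478, 489 and 499 (2.64, SE 0.14). Lrp2, the endocytic receptor megalin that works with cubilin, rose from 270, 254 and 291 to 2270, 2160 and 2250 (3.05, SE 0.12), while the transferrin receptor gene Tfrc fell from 2430, 2370 and 2050 to 992, 909 and 1040 (-1.22, SE 0.11). In the Hippo pathway, the phosphatase gene Ptpn14 rose from 80.9, 83.1 and 79.3 to 634, 589 and 716 (2.99, SE 0.14), Ccn1 rose from 59.3, 62.7 and 50.5 to 204, 229 and 173 (1.76, SE 0.14), Tead4 fell from 315, 319 and 339 to 86.3, 65.8 and 78.5 (-2.08, SE 0.13) and Yap1 was at 870, 843 and 829 and then 1110, 1070 and 1220 (0.42, SE 0.08).

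Genes of self-digestion were lower in part. Ulk1, the kinase that starts autophagy, fell from 881, 839 and 920 to 199, 219 and 236 (log2 -2.0, SE 0.10), Atg14 from 429, 455 and 363 to 113, 96.6 and 108 (-2.0, SE 0.11), and Tfeb, a factor of lysosomal genes, from 204, 174 and 209 to 45.5, 60.6 and 46.7 (-1.91, SE 0.17), and of 26 genes 11 were called lower and 2 higher. With Cpt1a, the carnitine carrier gene Slc25a20 fell from 197, 222 and 199 to 64.7, 52.7 and 55.2 (-1.86, SE 0.15). Among 15 fatty acid oxidation genes, 6 were called lower and 1 higher, Cpt2 (log2 0.66). Hoxb1 rose from 1 count to 58.7, 48.3 and 39.7 (ratio 129, interval 22.8 to 5130) and Hoxa5 from 4.32, 14.6 and 14.4 to 93.5, 73.7 and 103 (3.02, SE 0.27). Hoxc13 fell from 85.2, 63.4 and 86.5 to 5.99, 3.51 and 5.44 (-3.92, SE 0.30). They are examples from the 10 Hox genes called higher and the 4 called lower. Of the 473 chromosome X genes tested, 146 (30.9%) were called higher and 46 (9.73%) lower, against 17.1% and 14.7% over all genes tested, with a median log2 change of 0.15 (-0.02 over all genes), against 0.07 in WT and 0.21 in Grb10 pA.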
